A study of Mus musculus with 12 samples.

Results

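Granulocyte-macrophage progenitors (GMP) were compared with pre-B cells of the mouse bone marrow, across all genes on the array. The comparison used 4 of the 12 arrays of the study, chosen by their titles: 2 arrays of GMP sorted as hCD4+ and 2 of pre-B cells. All groups came from bone marrow of female C57BL/6 mice aged 16 weeks that carried Cebpa-Enh/prom-hCD4, a construct named for the enhancer and promoter of Cebpa and for human CD4. The labels do not say whether the pre-B cells were sorted on hCD4. Since GMP were sorted on a signal named for Cebpa, the level of Cebpa itself is tied to that gate, and hCD4 is not among the gene names of the array. The other 8 arrays held hCD4- and hCD4+ fractions of pre-pro-B and pro-B cells, 2 arrays each, and entered the model only through its estimate of the spread. Total RNA was labelled with Cy3 and hybridised to one-colour Agilent arrays.

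GMP are the marrow progenitors that give rise to neutrophils and monocytes. C/EBP family factors and PU.1 drive this branch, and neutrophil primary granules begin to fill with serine proteases and myeloperoxidase around this stage. Pre-B cells have joined the segments of the immunoglobulin heavy chain locus and carry or have just carried the pre-B receptor, in which the heavy chain pairs with the surrogate light chain (VpreB and lambda5) and signals through CD79A and CD79B. EBF1, PAX5, FOXO1 and the E proteins set up and keep the B lineage programme.

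Each level below is the log2 brightness of a gene relative to the 75th percentile of its array, so 0 is that percentile, and a change is the GMP mean minus the pre-B mean on that log2 scale. That percentile lay at an intensity of 953 and 659 on the GMP arrays and at 642 and 435 on the pre-B arrays. Of all probes, 51.8% and 50.6% were well above background on the GMP arrays, against 55.9% and 53.4% on the pre-B arrays. The Pearson correlation over the 18556 genes tested was 0.990 between the GMP arrays and 0.991 between the pre-B arrays, against 0.852 between the group means (all across genes, which are not independent replicates). The number of arrays limits the precision, at 2 in each group, and the median standard deviation of a gene was 0.15 in GMP and 0.11 in pre-B cells. Replicate numbers are not tied to separate mice in the labels, so the p-values measure only the spread between these samples, which may be technical. The GMP arrays lay on another slide and another scan than the pre-B arrays, so slide and cell type cannot be told apart. The negative control spots read 41.3 and 40.4 on the GMP arrays and 68.1 and 68.5 on the pre-B arrays, and the part of this in the results was not tested. These are bulk samples, in which fewer cells of a type and less RNA per cell cannot be told apart.

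Of the 18556 genes tested, 12071 passed an adjusted p of 0.05 in limma's moderated test, or 65.1%. GMP levels were higher for 5646 of them (30.4% of the genes tested) and lower for 6425 (34.6%). With a change of at least 2-fold required as well, 3397 genes were higher (18.3%) and 4152 lower (22.4%), and 465 and 497 passed with at least 16-fold. The median change over all genes was -0.14. Among the called genes 46.8% were higher in GMP, but when each array was scaled to its median in place of its 75th percentile, the share was 65.5% and the median of all genes 0.32. Small changes in either direction therefore depend on the scaling, and a list is read here against the shares and the median of all genes. The GMP and pre-B arrays did not overlap for 38.4% of genes with GMP higher and for 45.8% with GMP lower. Among the genes tested, 690 were well above background on both GMP arrays and on no pre-B array, and 1513 the other way round.

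**Figure D1:**
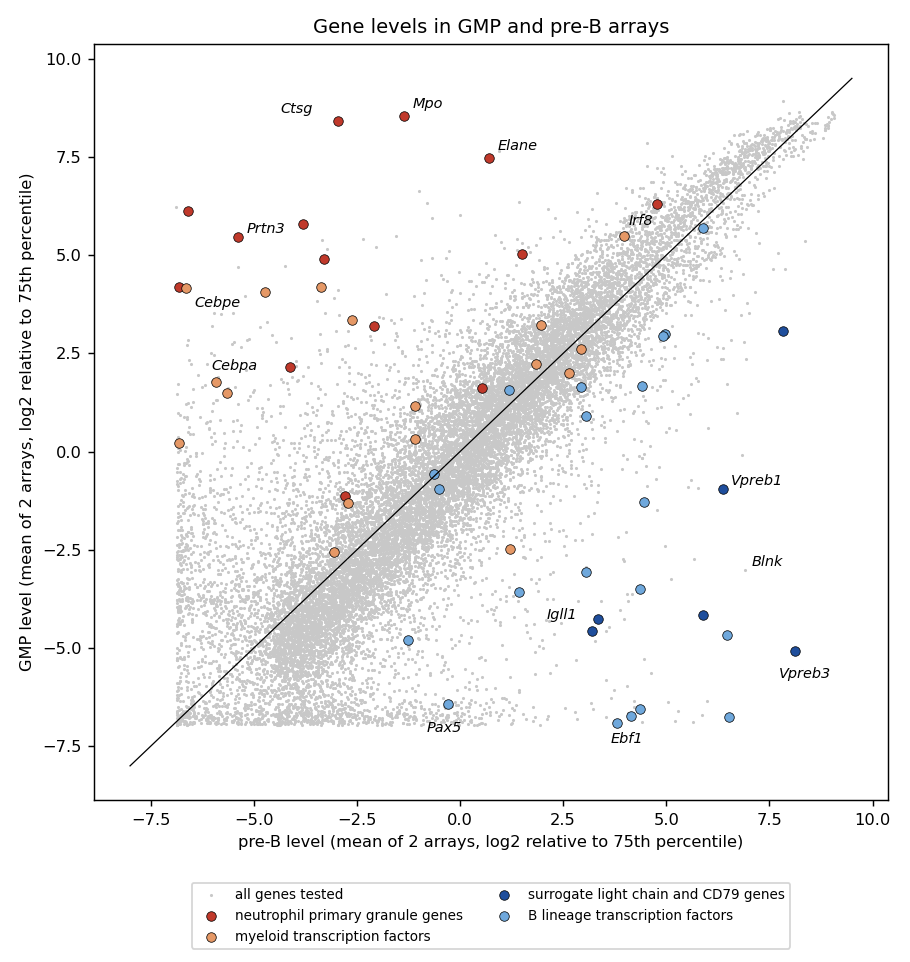
Mean level of each of the 18556 genes tested in pre-B cells (x axis) and GMP (y axis), each the mean of 2 arrays, in log2 units relative to the 75th percentile of the array; the line marks equal levels. Coloured points are members of 4 gene lists: the primary granule genes lie above the line and the surrogate light chain and CD79 genes below it.

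The cell type markers went with the labels, apart from 1 probe. Mpo, Elane, Prtn3, Ctsg, Cd34, Kit and Fcgr3 were higher in GMP, and the pre-B markers given here (Cd79a, Cd79b, Vpreb1, Igll1, Vpreb3, Ebf1, Pax5, Rag1 and Rag2) were lower. Csf3r, the receptor for granulocyte colony-stimulating factor, lay at 6.25 and 6.29 on the GMP arrays and at 7.07 and 7.08 on the pre-B arrays. Its single probe thus read slightly lower in GMP (change -0.80 ± 0.20, SE, limma adjusted p = 0.00666). That probe lay between 6.25 and 7.08 in these cells and at group means of 6.48 to 6.67 in the other groups, and whether it measures the Csf3r transcript was not tested.

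All 14 measured primary granule genes were higher in GMP, with a median change of 7.48, where 30.4% of all genes tested were higher. Ctsg encodes cathepsin G, a serine protease of the granules. It lay at 8.29 and 8.54 on the GMP arrays and at -3.56 and -2.35 on the pre-B arrays, a change of 11.37 ± 0.83 (SE, limma adjusted p = 7.39e-06). Among called genes with more than a clone or accession name, measured on both sides and without overlap, none rose more. The Ctsg probe is placed by the array annotation at chr14:56718795-56718854 (mm9). Mpo, which encodes myeloperoxidase, lay at 8.30 and 8.79 against -2.05 and -0.66 (change 9.90 ± 1.26, SE, limma adjusted p = 0.000193), and a second Mpo probe changed by 13.13. Elane, neutrophil elastase, lay at 7.32 and 7.62 in GMP. Its pre-B levels of 0.55 and 0.85 were above the 75th percentile. The Elane probe also had group means of 0.33 in hCD4- pre-pro-B, 0.44 in hCD4+ pre-pro-B and -0.23 in hCD4- pro-B cells. In hCD4+ pro-B cells its mean was 2.87. Whether the lower levels measure the Elane transcript was not tested. The groups did not overlap for any of these genes.

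Ms4a3, a membrane protein gene that marks granulocyte and monocyte progenitors, was well above background only on the GMP arrays (6.08 and 6.16), at least 1630-fold over what the pre-B arrays could measure. Such a lower bound sets the mean of the bright group against the dimmest signal that is well above background on the arrays of the other group, or against the gene's own dim signal where that is higher. Every gene given with a bound also passed the test, with limma adjusted p-values from 6.43e-09 (Il7r) to 0.00263 (S100a8). Prtn3, proteinase 3, was at least 1041-fold higher by the same measure (5.72 and 5.22 in GMP). Its probe, at chr10:79343869-79344685 (mm9), and that of Elane, at chr10:79350902-79350961, lie close together on the chromosome. Igsf6 was at least 426.2-fold higher. Hp, haptoglobin (change 9.59), and Cd63, a granule and lysosome membrane protein (8.19), were measured in both groups. The smallest changes were those of Ctsc (1.09), whose product cathepsin C activates the granule proteases, and Srgn (1.52), the proteoglycan core of the granules. Promoters of Ms4a3 and Ctsg are shown as examples of a list whose measured members all moved together. They were chosen among members that hold a C/EBP or PU.1 motif, so a match in them was given by the choice. Gstm1 held neither motif, and Hp and Prssl1 had no window. The printed promoters give the 250 bases before the RefSeq start (GRCm38.p6), with matches to a C/EBP motif (TTNNGNAA) or a PU.1 motif (GAGGAAG), on either strand, in capitals.
Ms4a3 promoter, chr19:11640852-11641101, minus strand: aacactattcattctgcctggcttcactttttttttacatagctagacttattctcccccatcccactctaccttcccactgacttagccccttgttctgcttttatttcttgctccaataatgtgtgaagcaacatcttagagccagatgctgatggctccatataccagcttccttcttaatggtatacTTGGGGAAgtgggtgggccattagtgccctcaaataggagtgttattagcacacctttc
Ctsg promoter, chr14:56102575-56102824, minus strand: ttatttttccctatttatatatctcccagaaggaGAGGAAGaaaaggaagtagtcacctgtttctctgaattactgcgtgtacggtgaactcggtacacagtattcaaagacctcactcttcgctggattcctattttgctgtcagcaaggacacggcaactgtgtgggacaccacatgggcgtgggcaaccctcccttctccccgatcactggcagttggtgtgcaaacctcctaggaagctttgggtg

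Of 17 measured myeloid transcription factors, 12 were higher in GMP (70.6%) and 2 lower (11.8%), against 30.4% and 34.6% of all genes. Their median change was 1.5. Cebpe, which drives late granulocyte maturation, lay at 4.16 and 4.18 in GMP and was not well above background on either pre-B array, at least 421.3-fold higher. Cebpa, the factor that founds the granulocyte-macrophage branch, lay at 1.96 and 1.58 in GMP and was at least 79.96-fold higher. Cebpd lay at 4.26 and 3.84 against -3.98 and -5.49 (change 8.78 ± 0.46, SE, limma adjusted p = 1.1e-06). Cebpb lay at 3.28 and 3.40 against -2.22 and -3.02 (5.96 ± 0.23). Each of these 4 was separated between the groups with no overlap.

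PU.1, Irf8 and Gfi1, which both branches use, had smaller changes than the 4 C/EBP factors. PU.1, listed on the array as Sfpi1, lay at -1.12 and -1.49 in GMP and at -2.75 and -2.68 in pre-B cells (change 1.41 ± 0.29, SE, limma adjusted p = 0.00271). Its probe was dim, with group means from -3.71 to -1.30 over the 6 groups. Whether that probe measures the full change of the transcript was not tested. Irf8, which directs the monocyte and dendritic branches and is also active in B cells, lay at 5.48 and 5.47 against 4.03 and 3.93 (1.5). Gfi1, a repressor used by neutrophil precursors and by lymphoid cells, lay at 3.20 and 3.24 against 2.12 and 1.78 (1.27). Other factors of the list had larger changes, among them Nfe2, a factor of the megakaryocyte lineage, which changed by 7.56. Tcfec was at least 65.97-fold higher and Gata2, a factor of stem and mast cells, at least 27.27-fold. Lower in GMP was Id2, an inhibitor of E proteins, at -2.23 and -2.74 against 1.55 and 0.87 (change -3.70).

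Of 18 measured myeloid and progenitor cytokine receptors, 14 were higher (77.8%) and 2 lower (11.1%) in GMP, against 30.4% and 34.6% of all genes. Their median change was 2.69. Kit, the stem cell factor receptor, lay at 2.51 and 2.69 on the GMP arrays and at -3.02 and -3.42 on the pre-B arrays (change 5.82 ± 0.18, SE, limma adjusted p = 7.45e-08). Csf1r, which encodes the M-CSF receptor of macrophages, lay at 5.43 and 5.57 against 0.82 and 0.86 (4.66), and its 2 other probes changed by 4.29 and -0.41. Il6ra, the interleukin 6 receptor, changed by 4.30. Csf2rb, the signalling chain shared by the receptors for GM-CSF, interleukin 3 and interleukin 5, changed by 3.93 and its second probe by 2.66, while Csf2ra, the ligand-binding chain for GM-CSF, changed by 1.02. Tnfrsf1a, a receptor for tumour necrosis factor, rose the most in the list (7.31 ± 0.14, SE, limma adjusted p = 1.15e-08), with 6.25 at its second probe. Flt3 had probes that disagreed, at 3.20, 4.27 and -1.66, so its direction is not settled.

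The interleukin 7 receptor axis showed the reverse at its receptor. Il7r, whose product gives B cell precursors their growth signal, lay at 4.18 and 3.97 in pre-B cells and was not well above background in GMP. Pre-B cells were thus at least 417.4-fold higher. Among the feedback inhibitors of the pathway, Socs2 was at least 16.59-fold lower in GMP and Socs1 changed by -3.92 ± 0.19 (SE, limma adjusted p = 6.2e-07). In all, 8 of 16 measured members were lower and 5 higher in GMP, against 34.6% and 30.4% of all genes, so the list as a whole was not one-sided. Bcl2 (4.16) and the transcription factor Stat5a (1.35) were higher in GMP.

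Of 19 measured genes of stem and multipotent progenitors, 14 were higher in GMP and 2 lower, against 30.4% and 34.6% of all genes. Their median change was 3.1. Cd34, a sialomucin of progenitors, lay at 6.24 and 6.19 in GMP and was at least 1741-fold higher by its brightest probe, but a second probe changed by only 3.08. Tal1 was at least 44.92-fold higher, and its partner Lmo2 lay at 4.30 and 4.67 against -0.46 and -0.44 (change 4.94). Cdk6, a kinase of the G1 phase, changed by 3.14 and Hoxa7 by 3.1. Mycn went the other way and was at least 3.828-fold lower in GMP.

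Genes of the cell types that lie beyond GMP were also higher. Of 16 measured monocyte and macrophage genes, 14 were higher and 1 lower, against 30.4% and 34.6% of all genes. Their median change was 5.89. Ccl9, a chemokine, lay at 4.65 and 4.73 in GMP and was at least 604.4-fold higher. Cx3cr1, the fractalkine receptor, was at least 133.8-fold higher (5.69 at its second probe) and Ccr2, the receptor that releases monocytes from marrow, at least 73.08-fold. Ly6c1 lay at 7.46 and 7.84 against 1.66 and 0.22 (change 6.71 ± 0.44, SE, limma adjusted p = 3.84e-06). All 16 members were well above background on both GMP arrays, against 8 on each pre-B array. Members were kept only if well above background on both arrays of some group, GMP among them, so this count depends in part on that filter. Their linear levels, with 1 at the 75th percentile, summed to 330 and 385 in GMP and to 18.6 and 15.6 in pre-B cells.

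Basophil, mast cell and eosinophil genes formed a second such group: 10 of 12 were higher in GMP and 2 lower. Of all genes tested, 30.4% were higher and 34.6% lower. The median change of the list was 6.69. Hdc, histidine decarboxylase, was at least 268.8-fold higher. Cpa3, mast cell carboxypeptidase, was at least 154-fold higher and Mcpt8, a basophil protease, at least 110.1-fold. Prg2, the eosinophil major basic protein gene, lay at 3.62 and 2.97 against -4.34 and -5.02 (change 7.98 ± 1.25, SE, limma adjusted p = 0.000636). The lower members were Tpsb2 (-2.79) and Prg3 (-1.1). The linear levels of the 12 genes summed to 44.4 and 36.1 in GMP and to 4.12 and 2.92 in pre-B cells, and the part of basophil or mast cell precursors in the GMP gate was not tested. When only genes well above background on all 4 arrays are kept, the median of this list is -1.1, because the members that pre-B cells lack leave it.

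Late neutrophil genes changed in both directions, with 30.8% higher and 15.4% lower, against 30.4% and 34.6% of all genes. Of 13 measured secondary granule and late genes, 4 were higher in GMP and 2 lower (median change 0.43, and -0.15 among genes well above background on all 4 arrays). S100a8, a calcium-binding protein of mature neutrophils, lay at 1.48 and 0.47 in GMP and was at least 46.1-fold higher. Mmp8, neutrophil collagenase, was at least 5.872-fold higher and Lcn2, lipocalin 2, changed by 3.1. Ltf, Ngp and Retnlg, which code for secondary granule or late neutrophil proteins, were not well above background on any of the 4 arrays. Camp, the cathelicidin gene, lay at -3.42 and -3.40 in GMP and at -1.56 and -0.74 in pre-B cells (change -2.26), and its second probe changed by -0.45.

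Fc receptors and their adaptors changed in both directions. Fcer1g, the signalling chain of the myeloid Fc receptors, lay at 4.94 and 4.94 in GMP and at -0.62 and -0.75 in pre-B cells (change 5.62 ± 0.20, SE, limma adjusted p = 1.49e-07). Hcst (4.58) and Tyrobp (4.03), adaptors of related receptors, and Fcgr3 (3.32), a low-affinity receptor for immunoglobulin G, were higher too, as was Fcgr2b, the inhibitory receptor that B cells also use (1.11). Fcrla, an intracellular Fc receptor-like protein of B cells, lay at 5.30 and 5.27 in pre-B cells and was at least 962.8-fold lower in GMP. Faim3, the immunoglobulin M receptor now named Fcmr, was at least 144.5-fold lower. The list had 8 higher (66.7%) and 4 lower (33.3%) of 12, against 30.4% and 34.6% of all genes. Of 8 genes of the phagocyte NADPH oxidase, which makes superoxide, 6 were higher and 2 lower. Quantile or loess normalization gave 4 and 2, and array median scaling 6 and 0. The cytosolic subunit Ncf1 (3.92) led the higher ones. Hvcn1 (-0.82) was among the lower ones, but not under array median scaling (-0.37, limma adjusted p = 0.0944). Cybb, the catalytic subunit, changed by 1.6 ± 0.53 (SE, limma adjusted p = 0.027), a call lost when any 1 of the 4 arrays was left out (adjusted p 0.0621 to 0.107).

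On the B side, 16 of 20 measured B lineage transcription factors were lower in GMP and 1 higher, with a median change of -4.28, where 34.6% of all genes were lower. Ebf1, the factor that specifies the B lineage, lay at 4.14 and 4.15 on the pre-B arrays and was not well above background on either GMP array (-6.87 and -6.59), at least 436.9-fold lower. Pou2af1, the coactivator OBF-1, lay at 6.55 and 6.48 in pre-B cells and was at least 2256-fold lower in GMP. Spib, an Ets factor related to PU.1, was at least 2116-fold lower, and Irf4, which acts at the pre-B stage, at least 506.4-fold. Pax5, the commitment factor, lay at only -0.38 and -0.22 in pre-B cells by its brightest probe, so its bound was at least 20.09-fold, and its second probe changed by -3.98.

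Foxo1, which switches on the recombinase genes, was measured on every array: it lay at 4.47 and 4.44 in pre-B cells and at -1.37 and -1.21 in GMP (change -5.74 ± 0.13, SE, limma adjusted p = 2.11e-08). Bach2, a repressor that keeps B cells from turning into plasma cells, lay at 4.34 and 4.37 against -3.02 and -3.96 (-7.85). Tcf3, which encodes the E proteins E12 and E47, changed by -2.74 and Ikzf1, Ikaros, by -2.16, and both remained well above background in GMP. The groups did not overlap for any of these factors. Erg (0.07), Myb (-0.19) and Pou2f2 (-0.44) did not pass, and Bcl11a was the member that was higher in GMP (0.39, with -0.53 at its second probe). Those changes are of the size that scaling alone moves.

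**Figure D2:**
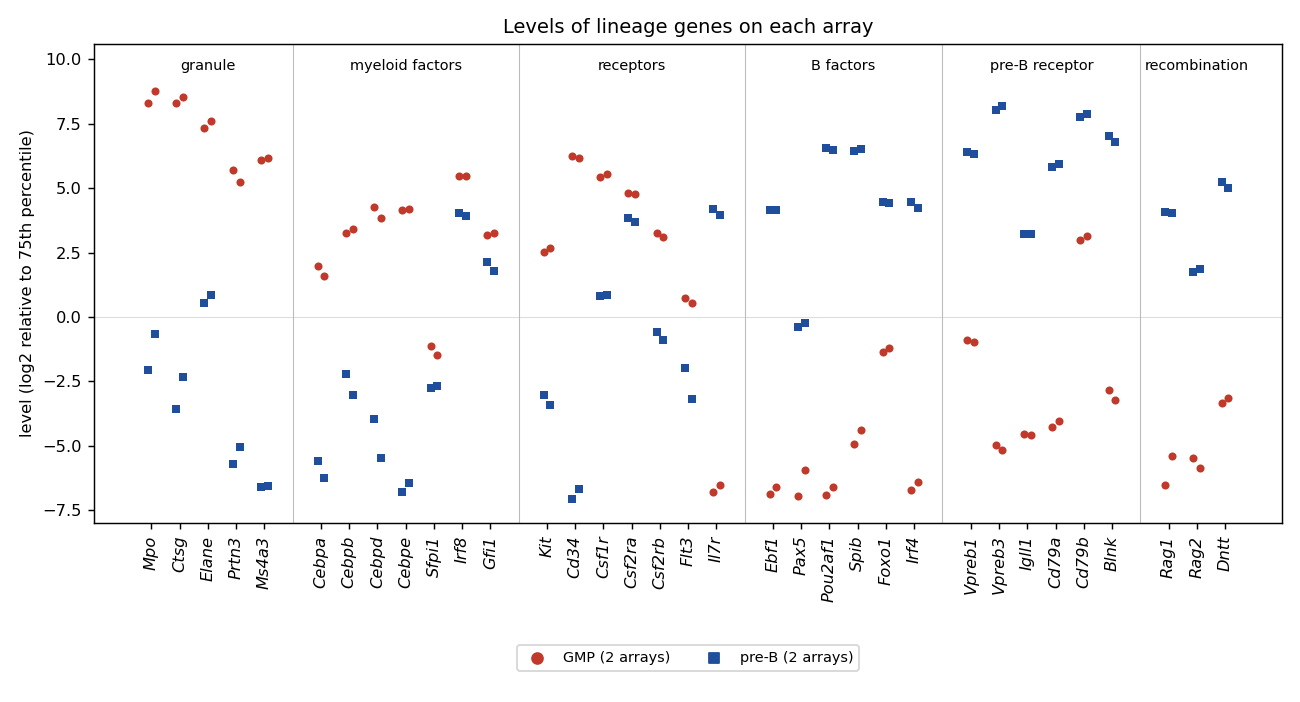
Levels of selected lineage genes on each of the 2 GMP arrays (circles) and 2 pre-B arrays (squares), in log2 units relative to the 75th percentile of the array (grey line at 0). Mpo and Ctsg lie above 8 in GMP and below 0 in pre-B cells, while Vpreb3 and Pou2af1 lie above 6 in pre-B cells and below -4 in GMP; Sfpi1, Irf8 and Gfi1 lie closer together.

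All 6 surrogate light chain and CD79 genes were lower in GMP, with a median change of -7.69, where 34.6% of all genes were lower. Vpreb3, a chaperone-like relative of the surrogate light chain, lay at 8.05 and 8.20 in pre-B cells and was at least 6911-fold lower in GMP, the largest lower bound in either direction among the named genes. Cd79a, a signalling chain of the pre-B receptor, lay at 5.80 and 5.96 against -4.26 and -4.06 (change -10.04 ± 0.28, SE, limma adjusted p = 5.23e-08), with -8.26 at its second probe. Igll1, which encodes lambda5, lay at 3.20 and 3.21 against -4.55 and -4.57 (-7.77). Vpreb1 lay at 6.42 and 6.32 against -0.91 and -0.98 (-7.31). Cd79b differed least, since it lay at 2.99 and 3.16 in GMP and at 7.78 and 7.90 in pre-B cells (-4.76 ± 0.12). GMP therefore read above the 75th percentile for Cd79b, with no overlap between the groups. The promoters of Cd79a and Igll1 are shown as examples, chosen among members that hold a motif marked here. The window of Vpreb3 held neither motif. Of the 5 list members with a window, only Igll1 held a match to the exact letters CCCNNGGG. EBF sites with other letters were not searched for and are not marked. The printed promoters give the same 250-base windows, with matches on either strand to an EBF motif (CCCNNGGG) or an E protein motif (CAGGTG) in capitals.
Cd79a promoter, chr7:24897247-24897496, plus strand: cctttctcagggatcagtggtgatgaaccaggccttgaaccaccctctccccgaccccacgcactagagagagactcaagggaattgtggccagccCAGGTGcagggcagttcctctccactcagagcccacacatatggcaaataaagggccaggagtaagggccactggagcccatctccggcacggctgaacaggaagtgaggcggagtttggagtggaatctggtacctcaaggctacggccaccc
Igll1 promoter, chr16:16863986-16864235, minus strand: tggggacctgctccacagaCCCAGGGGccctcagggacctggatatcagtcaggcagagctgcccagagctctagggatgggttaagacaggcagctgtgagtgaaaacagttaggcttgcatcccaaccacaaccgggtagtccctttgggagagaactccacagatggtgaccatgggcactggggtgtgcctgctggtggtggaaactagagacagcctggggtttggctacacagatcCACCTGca

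Of 22 measured genes of pre-B receptor signalling, 17 were lower in GMP and 4 higher, against 34.6% and 30.4% of all genes. Their median change was -2.10. Blnk, the adaptor that links the receptor to its downstream enzymes, lay at 7.02 and 6.80 in pre-B cells and at -2.82 and -3.21 in GMP (change -9.93 ± 0.15, SE, limma adjusted p = 7.88e-09). Cd72 (-6.70) and Prkcb (-5.22), protein kinase C beta, followed, and Blk, a Src family kinase of B cells, was at least 17.02-fold lower. Sykb, the kinase SYK, changed by -3.75 but lay at 2.60 and 2.66 in GMP. The higher members were Vav3 (2.73) and Vav1 (0.65), exchange factors, Lcp2 (2.03), an adaptor, and Ptpn6 (0.82), a phosphatase.

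The recombination genes were lower in GMP for 11 of 16 measured members, with 1 higher, against 34.6% and 30.4% of all genes. Their median change was -1.70. Rag1 lay at 4.09 and 4.02 in pre-B cells and was at least 410.9-fold lower in GMP, and Rag2, its partner in the recombinase, lay at 1.76 and 1.87 and was at least 86.89-fold lower. Second probes of the recombinase genes changed by -8.67 (Rag1) and -4.26 (Rag2). Dntt encodes the polymerase that adds bases at the joins. It lay at 5.23 and 5.02 against -3.33 and -3.14 (change -8.36 ± 0.14, SE, limma adjusted p = 7.88e-09). Polm, a related polymerase, changed by -5.41 (-6.42 at its second probe) and Lig4, the ligase of end joining, by -4.93. Among repair genes used in all cells, Xrcc6 (Ku70) changed by -2.40. Atm (0.08), Prkdc (0.18) and Trp53bp1 (-0.15) did not pass, and Poll, polymerase lambda, was the member that was higher (2.18).

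Among 24 measured surface genes of later B cells, 19 were lower in GMP and 1 higher, against 34.6% and 30.4% of all genes. Their median change was -5.03. Cd2 was at least 526.4-fold lower (-7.98 at its second probe), Il2ra, an interleukin 2 receptor chain that marks pre-B cells, at least 222.9-fold, and Bst1, an enzyme on the surface of early B cells, at least 94.06-fold (-6.75 at its second probe). Tnfrsf13c, the BAFF receptor, lay at 3.64 and 3.59 in pre-B cells against -4.32 and -4.64 (-8.09), while its second probe changed by -2.31. Of the immunoglobulin transcripts 4 were measured, and only Igk-C, the kappa constant region, passed: it lay at -2.81 and -2.94 in pre-B cells and was at least 3.374-fold lower in GMP.

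The genes of MHC class II presentation were lower in GMP for 10 of 14 members and higher for 2, against 34.6% and 30.4% of all genes. Their median change was -2.18. H2-Eb1, a class II chain, lay at 3.98 and 3.77 in pre-B cells and at -3.30 and -4.79 in GMP (change -7.92 ± 0.42, SE, limma adjusted p = 1.18e-06). Cd74, the invariant chain, changed by -7.22, and H2-Aa was at least 23.57-fold lower. H2-Ab1 lay at 1.76 and 1.69 in GMP against 5.66 and 5.55 (-3.88). Ciita, the activator of these genes, was at least 10.53-fold lower. The peptide-loading genes H2-DMa (2.29) and H2-DMb1 (1.98) were higher in GMP, so the list changed in both directions.

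Lymphoid progenitor and dendritic lists overlapped with the B programme. Of 15 early lymphoid progenitor genes, 10 were lower and 2 higher (median change -2.89), against 34.6% and 30.4% of all genes. The lower ones included Il7r, Dntt and Rag1 above. Ly6d, a marker of lymphoid progenitors that turn to the B lineage, lay at 5.99 and 5.97 in pre-B cells and was at least 1560-fold lower in GMP. Ccr7, a chemokine receptor, changed by -8.08 ± 0.32 (SE, limma adjusted p = 2.26e-07). Of 17 plasmacytoid dendritic cell genes, 13 were lower and 3 higher (median -1.14), led by Ly6d and Spib, which B cell precursors share. Siglech, the receptor that defines plasmacytoid dendritic cells, lay at 6.20 and 6.17 in GMP and at 6.85 and 7.01 in pre-B cells. That probe was called under 3 of 4 scalings, with changes from -1.25 to -0.29. For Siglech 2 further probes changed by -0.83 and -5.25. Whether the brightest probe measures the Siglech transcript was not tested.

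The cell cycle genes differed by phase and by family member. No G2/M gene was higher in GMP and 22 of 26 were lower, against 30.4% and 34.6% of all genes. Their median change was -0.94. With each array scaled to its median, 10 were lower and none higher, and the median was -0.49. Cdc25b, a phosphatase that starts mitosis, changed most among those measured in both groups, at 0.72 and 0.72 in GMP against 4.58 and 4.53 (-3.84 ± 0.18, SE, limma adjusted p = 6.75e-07). Mki67, the proliferation antigen, lay at 4.89 and 5.09 against 6.42 and 6.41 (-1.42). Both cell types thus read far above the 75th percentile for Mki67. For Aurkb, Aurora kinase B (-2.63 ± 0.90, SE, limma adjusted p = 0.0312), the call was lost when any 1 array was left out (adjusted p 0.0689 to 0.119) and under quantile and loess normalization.

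Of 28 S phase genes, 13 were higher in GMP (46.4%) and 4 lower (14.3%), against 30.4% and 34.6% of all genes. Their median change was 0.42. Quantile normalization, however, gave 8 higher and 6 lower, and array median scaling gave 21 and 3. The balance of the counts thus moved with the scaling, while the median stayed above 0. The rises were small: Tk1, thymidine kinase, 1.36, Cdt1, a replication licensing factor, 1.33, and Mcm6, a helicase subunit, 1.23. E2f2, a factor of the G1 to S transition, was the exception at 1.65 and 1.78 in GMP against 6.46 and 6.47 in pre-B cells (-4.74 ± 0.12, SE, limma adjusted p = 3.29e-08).

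The D cyclins changed in opposite directions. Ccnd1, cyclin D1, lay at 0.94 and 0.95 in GMP against -2.38 and -3.80 (change 4.04), and Ccnd2 at 2.44 and 1.77 against -0.59 and -0.58 (2.69). Ccnd3 lay at 4.40 and 4.64 in GMP against 6.88 and 6.85 (-2.34). Cell cycle inhibitors were lower in GMP: Cdkn1b, p27, at 1.55 and 1.41 against 4.07 and 3.91 (-2.51), Cdkn1c, p57 (-3.03), and Cdkn2a, at least 3.1-fold lower. Of 17 members, 9 were lower (52.9%) and 4 higher (23.5%), against 34.6% and 30.4% of all genes. Myc lay at 3.05 and 2.84 in GMP and at -1.5 and -1.54 in pre-B cells (4.47 ± 0.37, SE, limma adjusted p = 1.55e-05). Its antagonists Mxd3 (-2.70) and Mxd1 (-2.04) were lower in GMP, although the second Mxd1 probe changed by only -0.56. In the Myc network 3 of 11 members were higher (27.3%) and 6 lower (54.5%).

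Genes for making ribosomes and for central metabolism were higher in GMP. All 26 ribosome biogenesis genes were higher, with a median change of 1.76, and 26 of 26 were called in the same direction under array median, quantile and loess scaling. Wdr12, a factor of the large subunit, lay at 3.59 and 3.63 against 0.67 and 0.55 (change 3.0 ± 0.12, SE, limma adjusted p = 2.12e-07). Polr1b, a subunit of RNA polymerase I, changed by 2.59, Nolc1 by 2.55 and Npm1, nucleophosmin, by 1.67.

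Of 23 genes of glycolysis and the pentose phosphate pathway, 21 were higher in GMP and 1 lower (median change 2.16). Of all genes tested, 30.4% were higher and 34.6% lower. The isoforms of an enzyme had unequal changes, which were not tested against each other. Hk3, the hexokinase of myeloid cells, lay at 3.68 and 3.38 in GMP and was at least 270.8-fold higher, and Hk2 lay at 1.88 and 2.12 against -2.81 and -2.56 (4.68). Hk1 lay at 7.14 and 7.30 against 6.96 and 7.13, with a change of 0.18 that did not pass, while its 2 other probes changed by 2.59 and 1.38. Of the subunits of lactate dehydrogenase, Ldhb changed by 5.79 and Ldha by 2.26. Pgam1 (3.25) and Aldoa (2.75), enzymes of glycolysis further down the pathway, were higher too. The lower member was Pgls, of the pentose phosphate pathway (-1.29).

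Of 26 respiratory chain genes, 25 were higher in GMP (18 under quantile or loess normalization) and none lower. Their median change was 0.86. Of all genes tested, 30.4% were higher and 34.6% lower. Cycs, cytochrome c, changed by 1.89 and Ndufa4 by 1.56. Among 24 genes of the secretory pathway and unfolded protein response, 18 were higher and 1 lower (median 1.68). Sdf2l1 (3.42), the chaperone Calr, calreticulin (2.82), and the disulphide isomerase Pdia6 (2.71) led, and Hspa5, the chaperone BiP, lay at 6.66 and 6.78 against 5.05 and 4.69 (1.85). Herpud1 was the lower member (-1.98).

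Sterol and lipid genes were higher for 15 of 24 (62.5%) and lower for 4 (16.7%), against 30.4% and 34.6% of all genes. Their median change was 0.82. Fdps, an enzyme that makes sterol precursors, lay at 4.46 and 4.69 in GMP against 1.80 and 1.72 (change 2.81 ± 0.19, SE, limma adjusted p = 5.5e-06). Scd1, a fatty acid desaturase, went the other way and was at least 15.54-fold lower in GMP. Of 26 lysosomal genes 16 were higher (61.5%) and 2 lower (7.69%), with a median change of 0.86. Ctsh, cathepsin H, changed by 4.07 and Hexa, a hexosaminidase, by 3.71, and Lgmn, the protease legumain, by -4.42.

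Survival genes of the Bcl2 family changed in opposite directions as well. Bcl2 lay at 1.92 and 1.99 in GMP and at -1.84 and -2.58 in pre-B cells (change 4.16 ± 0.26, SE, limma adjusted p = 3.25e-06). Bcl2l1, which encodes Bcl-xL, lay at 1.40 and 1.51 in GMP and at 5.67 and 5.37 in pre-B cells (-4.07 ± 0.16, SE, limma adjusted p = 2e-07), with -5.22 at its second probe. The groups did not overlap for either gene. Bcl2a1d, a member of the A1 group whose near-identical copies share sequence, was at least 4.463-fold higher in GMP. Among the genes that promote death, Bmf was at least 123.5-fold lower in GMP and Bid changed by 2.98. Of 14 members 6 were higher and 5 lower, near the shares of all genes.

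Of 26 interferon response genes, 14 were lower in GMP (53.8%) and 5 higher (19.2%), with a median change of -0.77. Of all genes tested, 34.6% were lower and 30.4% higher. Ddx58, the RNA sensor RIG-I, lay at -1.37 and -1.67 in GMP against 1.92 and 1.99 (change -3.47 ± 0.14, SE, limma adjusted p = 2.21e-07), and Oas2 changed by -2.77. Ifih1, the related sensor MDA5, went the other way (2.25), as did the membrane protein Ifitm3 (4.43). Among Toll-like receptors and their partners, Cd14, the coreceptor for bacterial lipopolysaccharide, was at least 22.96-fold higher in GMP and Tlr2 changed by 2.16. Tlr9 (-1.02) and Tlr7 (-0.75), sensors of nucleic acids, were lower. That list had 6 higher (42.9%) and 5 lower (35.7%) of 14, against 30.4% and 34.6% of all genes. Its median of 0.11 changed sign with normexp background correction under 75th percentile scaling and with the filter on all 4 arrays.

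**Figure D3:**
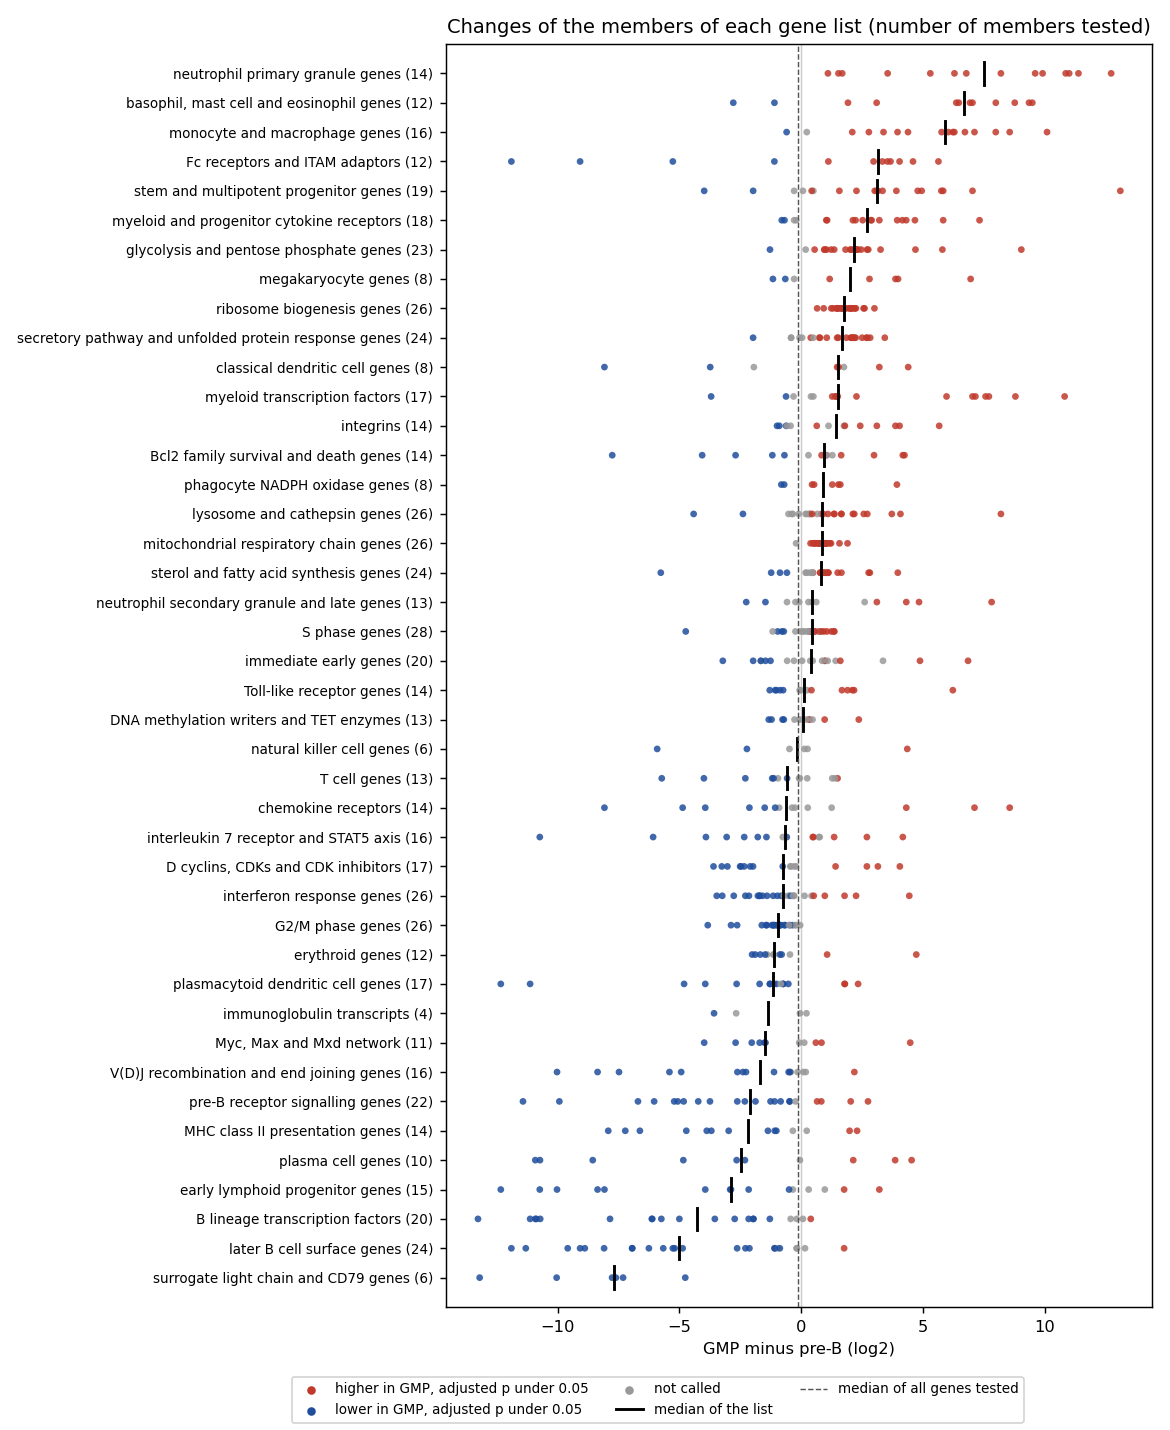
Change of each measured member (points, GMP minus pre-B, log2) in the 42 gene lists, ordered by median (black bar); the number of members tested stands after each name. Red and blue points passed an adjusted p of 0.05 and grey points did not. The dashed line is the median of all genes tested, -0.14. Primary granule genes (median 7.48) stand at one end and surrogate light chain and CD79 genes (median -7.69) at the other.

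Outside the lists, further genes had changes as large. Gpc1, a glypican, lay at 4.83 and 5.47 in GMP against -3.24 and -3.20 (change 8.37 ± 0.23, SE, limma adjusted p = 4.44e-08), Emb, embigin, changed by 7.76 and Rab44 by 7.61. Ccl3, a chemokine, changed by 7.53. Cst7, cystatin F, an inhibitor of lysosomal proteases, was at least 498.8-fold higher, and Fut7, which makes selectin ligands, at least 364.3-fold, with a change of 6.99 at its second probe. On the other side Epha2, a receptor tyrosine kinase, lay at 3.48 and 3.59 in pre-B cells against -4.34 and -4.77 (-8.09). Rsph9 (-8.24), Fam129c (-7.88) and Col5a3 (-7.79) were of similar size, and Chst3, a sulphotransferase, was at least 615.4-fold lower in GMP.

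Genes of other cells that a gate could hold were read as a check. Of 13 T cell genes 6 were lower in GMP (46.2%) and 1 higher (7.69%), or 4 and 3 under array median scaling. Of all genes tested, 34.6% were lower and 30.4% higher. Tcf7 and Cd3d, 2 of the lower T cell genes, were not well above background on any of the 4 arrays. Among the members, the largest changes were those of Zap70, at least 34.85-fold lower (-4.43 at its second probe), and Lck (-4.0), kinases of antigen receptor signalling. Cd8a was not well above background on any of the 4 arrays, Cd3d lay at -6.52 and -6.70 against -5.62 and -5.21, and Cd3e at 0.24 and 1.10 against 0.47 and 0.39. The T cell sums were 4.09 and 5.52 in GMP and 10.9 and 11.6 in pre-B cells. The sum of 12 erythroid genes was 3.68 and 2.95 in GMP and 8.98 and 8.18 in pre-B cells. Of these genes 6 were lower (50%) and 2 higher (16.7%), against 34.6% and 30.4% of all genes. The globin genes Hba-a1 (-1.14) and Hbb-b1 (-1.4) did not pass. Gata1, which erythroid, megakaryocyte and mast cells share, was at least 12.05-fold higher in GMP.

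Of 8 megakaryocyte genes 5 were higher in GMP and 2 lower, against 30.4% and 34.6% of all genes tested. None was lower under array median, quantile or loess scaling. Pf4, platelet factor 4, led the higher ones (at least 25.16-fold). The sum of the 8 genes was 2.05 and 1.73 in GMP against 0.333 and 0.415 in pre-B cells. The natural killer list held 6 genes, with 1 higher in GMP (16.7%) and 2 lower (33.3%), and a median change of -0.18. Nkg7, a granule membrane protein, lay at 5.28 and 5.41 in GMP against 0.92 and 1.08 (change 4.35), with 10.88 at its second probe. Klra7 was at least 14.84-fold lower in GMP and Klrd1 changed by -2.23. Klrb1c was not well above background on any of the 4 arrays. Plasma cell genes were lower for 6 of 10 (60%) and higher for 3 (30%), against 34.6% and 30.4% of all genes. Irf4 and 2010001M09Rik (now Mzb1, at least 461.2-fold lower) led the lower ones. In the sum of the plasma cell genes the pre-B arrays, at 53.0 and 49.4, exceeded the GMP arrays, at 25.6 and 24.2. The part of such cells in any change above was not tested.

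The other 4 groups place both cell types on a range. The primary granule genes had a median level of 5.26 in GMP and -2.78 in pre-B cells, with 1.21 in hCD4+ pro-B cells, -2.08 in hCD4- pro-B cells, -1.29 in hCD4+ pre-pro-B cells and -3.14 in hCD4- pre-pro-B cells. GMP had the highest level, and only hCD4- pre-pro-B cells lay below pre-B cells. For the surrogate light chain and CD79 genes, pre-B cells (6.12) lay between hCD4- pro-B (6.28) and hCD4+ pro-B cells (5.75), and GMP (-4.22) lay below both pre-pro-B groups (-2.36 and -2.06). The B lineage factors were highest in pre-B cells (3.97) and lowest in GMP (-2.18). Ribosome biogenesis genes were highest in GMP (3.24), while G2/M genes lay at 1.94 in GMP, 3.07 in pre-B cells and -0.52 in hCD4- pre-pro-B cells. Neighbouring groups in these orders were not tested.

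**Figure D4:**
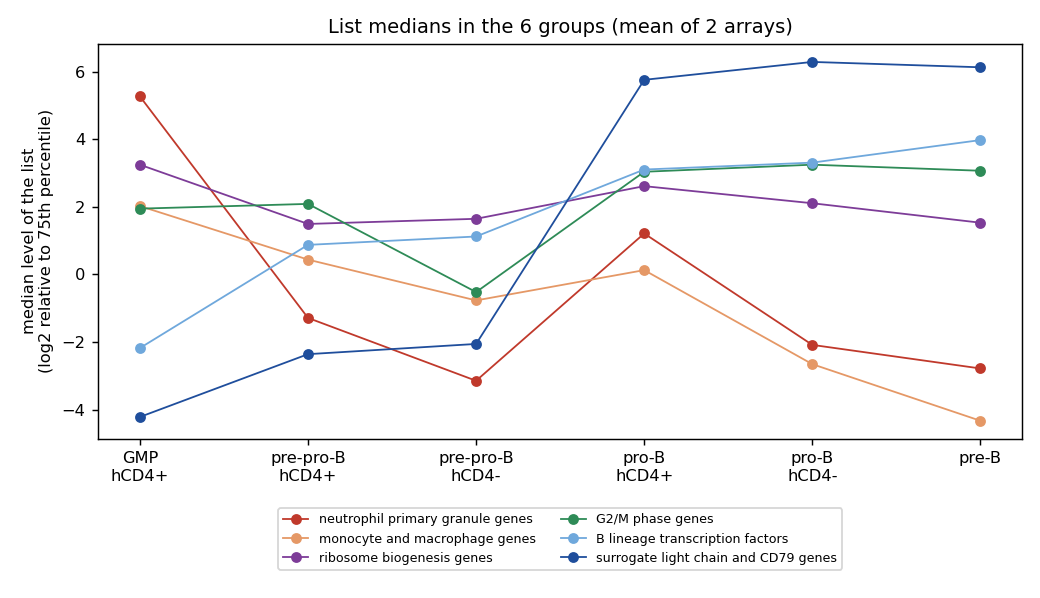
Median level of 6 gene lists in the 6 sorted groups, in log2 relative to the 75th percentile. Each point is the mean of the list medians of 2 arrays. The lines only join the points of a list and do not stand for a course in time. Primary granule genes fall from 5.26 in GMP to -2.78 in pre-B cells, with 1.21 in hCD4+ pro-B cells.

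The promoter windows were searched for 6 short motifs on both strands. They were C/EBP (TTNNGNAA), PU.1 (GAGGAAG), EBF (CCCNNGGG), E protein (CAGGTG), Runx (TGTGGT) and IRF (GAAA, any pair of bases and GAAA), and different motifs may overlap. Each window ran from 250 bases before the RefSeq start to 50 after it, while the promoters printed above show only the part before the start. Such windows could be matched to 10979 of the genes tested. The PU.1 motif stood in 18.9% of the 435 windows of genes at least 16-fold higher in GMP, in 15.5% of the 336 windows of genes at least 16-fold lower, and in 13.8% of all 13887 windows of tested genes. For the C/EBP motif the shares were 36.1%, 32.7% and 32.7%. The EBF motif stood in 21.1%, 25.3% and 17.7% of the same windows, the E protein motif in 20%, 24.1% and 18.6%, the Runx motif in 12.4%, 16.1% and 13.3%, and the IRF motif in 4.6%, 4.17% and 3.18%. Over all 32851 RefSeq windows of this length the shares were 40.7% (C/EBP), 13.6% (PU.1), 13.7% (EBF), 20.2% (E protein), 16.8% (Runx) and 3.44% (IRF). A match is a description of the letters, not a bound site, and these shares were not tested.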

How the data were processed

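Total RNA of 12 samples was measured on one-colour arrays. Scanner files came from Agilent Feature Extraction 10.7.3.1 (protocol GE1_107_Sep09), per the file headers, and hold a background-corrected intensity per spot. The authors' deposited table of log2 values was used as an alternative only; how it was made is not given in the sources used here. Spots marked as outliers were set to missing (2469 values) and spots of a probe were averaged to 39429 probes. The log2 of the processed intensity minus the 75th percentile of each array was tested with limma 3.58.1 (lmFit and eBayes, two-sided, Benjamini-Hochberg) in R 4.3.3, in 1 model of all 12 arrays in 6 groups with 6 residual degrees of freedom. Probes entered the test if the software marked them well above background in each array of some group, and a gene is its kept probe with the highest mean level, which left 18556 genes. Among these, 3907 had several kept probes, 6 had a missing value on the 4 arrays, 12986 matched RefSeq by accession (1441 under another symbol) and 6302 carry only a clone or accession name. Gene names follow the array annotation, whose probe positions are on mm9. Promoters are from the RefSeq table of GRCm38.p6. Figures were drawn with matplotlib 3.10.9 in Python 3.11.15.

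The contrast and the 42 gene lists were chosen with earlier results of these data known. Named genes are the 12 largest rises and falls among named genes that passed, were measured on both sides and did not overlap, the 8 largest lower bounds in each direction, up to 5 called members of each list with the largest change, and a fixed set of lineage genes. Other list members were named after their values were seen. Ighm, in the fixed set, is not analysed here. Some genes that these rules name are not reported here. The change of another kept probe of a called gene is given where it differed by over 1 on the log2 scale or in sign; other genes are given by 1 probe. Alternatives covered normalization, background correction, the filter on dim probes, the deposited table, the choice of probe, the prior, array weights, the replicate number as a block, the 4 arrays alone and leaving out each array. The code was tested on simulated data.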

Additional observations from a re-analysis of the deposited data

How the results depend on the processing

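With each array scaled to its median, 7742 genes were higher in GMP and 4076 lower, against 5646 and 6425 with the 75th percentile, and 9722 genes were called in the same direction by both. Requiring at least 2-fold gave 3397 higher and 4152 lower, or 5213 and 2609 under array median scaling. Loess normalization moved the median of all genes by 0.12 and array median scaling by 0.45. Leaving out each array in turn gave 4886 to 5203 higher and 5273 to 5944 lower, where the lone array of a group is assumed to vary like the other groups. The other settings ranged from 4847 to 5814 higher and from 4657 to 6822 lower. The deposited table gave 5334 and 5834. A replicate block gave 5793 higher and 6739 lower; deviations of same-numbered GMP and pre-B arrays correlated at 0.16, and over the 15 pairs of groups at -0.01 to 0.25. Not every pair was above 0.1 and the labels do not say what the numbers stand for, so they were not used to pair arrays. No slide block could be fitted, since each slide held 2 whole groups.

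For the named genes, 3672 comparisons with an alternative kept their direction and side of the threshold, 54 kept their direction and lost the call, and none reversed. Calls were lost for Csf3r, Mbd2 and Hvcn1 only under array median scaling (adjusted p 0.0696, 0.137 and 0.0944), and under at least 1 setting for Aurkb, Tcf7, Cd3d, Tlr1, Tlr4, Tfrc, Hspa1a, Dusp2, Cd68, Gp1bb and Cybb. List medians changed sign under at least 1 setting for the interleukin 7, secondary granule, basophil, Toll-like receptor, integrin, DNA methylation, immediate early and natural killer lists. The cause was not tested. With levels under the floor of an array set to it, medians were 4.93 for monocyte, 4.89 for basophil, -3.85 for B lineage factor, -2.78 for later B surface, -1.36 for class II and -2.25 for early lymphoid genes. Levels not well above background carry only a bound.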

Other observations

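Adhesion and homing genes differed by member. Of 14 measured integrin genes, 7 were higher in GMP (50%) and 3 lower (21.4%), against 30.4% and 34.6% of all genes. Itgb5, integrin beta 5, lay at 0.66 and 1.04 in GMP and was at least 42.15-fold higher, Itgb7 lay at 1.62 and 1.85 against -1.77 and -2.81 (change 4.03 ± 0.37, SE, limma adjusted p = 2.79e-05), and Itga2b, the platelet integrin chain, was at least 3.159-fold higher. Itgal, the alpha chain of LFA-1, had probes at 3.1, 3.16 and -0.88. Its partner Itgb2, the chain shared by the leukocyte integrins, was lower in GMP (-1.0). Of 14 chemokine receptors 3 were higher (21.4%) and 6 lower (42.9%), not far from the shares of all genes. Cxcr2, the receptor that draws neutrophils, was at least 6.702-fold higher, while Cxcr5, which guides B cells to follicles, was at least 6.093-fold lower and Cxcr4, the receptor that holds cells in marrow, changed by -1.5.

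DNA methylation genes showed small changes, with 3 of 13 higher in GMP and 4 lower, or 5 and 2 under array median scaling. The shares of 23.1% and 30.8% were near those of all genes (30.4% and 34.6%). Dnmt3b, a de novo methyltransferase, lay at 2.82 and 2.81 in GMP against 0.50 and 0.41 (change 2.36 ± 0.15, SE, limma adjusted p = 3.91e-06). Tet2, which oxidises methylated cytosine, lay at 0.98 and 1.38 against 0.22 and 0.23 (0.96), and Mbd4, which binds methylated DNA, was lower (-1.34). Immediate early genes, which respond to handling of cells, differed between the 2 GMP arrays: Atf3 lay at 0.66 and -3.76, Egr1 at 3.27 and 1.05 and Hspa1a at 4.34 and 2.18. In this list 4 of 20 were higher and 5 lower, or 8 and 4 under array median scaling. Its median was 0.42 and was -0.19 without GMP replicate 1, and Hspa1a (4.87, limma adjusted p = 0.0255) lost its call without that array (adjusted p = 0.137) or without pre-B replicate 1 (0.144). Fosl2 was at least 39.98-fold higher in GMP and Btg2 changed by -3.22.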
